A study of Mus musculus with 8 samples.

Results

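The genes described here are the TAM receptors and a small set of genes for the clearance of dead cells, 10 in all of the 57010 gene identifiers in the count table. They are taken by name. The list holds the receptors Axl, Mertk and Tyro3, and Gas6 and Pros1 as ligands of this receptor family. It also holds the integrin bridge Mfge8 with the integrin subunits Itgav and Itgb5, and the engulfment receptors Cd36 and Megf10. All 10 were found in the table, and all 10 passed the filter on low counts.

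Poly(A) RNA of whole retina was sequenced in 8 libraries, each from 1 retina. WT mice were sampled at postnatal day 15 (P15), and mice homozygous for the rd10 mutation of Pde6b, a subunit gene of the rod phosphodiesterase, at P15, P18 and P21, with 2 libraries in each of the 4 groups. The mutation is carried in all cells of the body, and the rods degenerate over these ages. No WT library of P18 or P21 was analysed here, so at P18 and P21 the effects of age and genotype cannot be told apart. The study's methods name WT littermates as the controls of the rd10 mice, and also name purchased C57BL/6J mice as WT. The sample titles do not give the origin of the WT libraries, and a difference of strain was not tested.

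Dying cells turn phosphatidylserine, a lipid of the inner face of the plasma membrane, to the outside, where phagocytes read it as a signal to engulf the cell. The TAM receptors, receptor tyrosine kinases named from the initials of their members, do not bind the lipid themselves. Gas6 and protein S, the product of Pros1, bind the lipid at one end and a TAM receptor at the other. Mfge8 does the same for integrins that contain the αv subunit. In the eye this machinery is best known from the retinal pigment epithelium, which engulfs the worn tips that photoreceptor outer segments shed every day, through Mertk and αvβ5 integrin, and from microglia, the resident macrophages of the retina.

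Counts on genes totaled between 28076947 and 33724562 per library. Values are given as CPM, counts scaled to library size with TMM factors between 0.937 and 1.06, and the levels of single genes are compared with each other only as CPM per kilobase of exon. The summed level of 8 rod genes, which checks the labeled tissue, was 46368 and 37111 CPM in WT P15 and between 17786 and 28878 CPM in the 6 rd10 libraries. Counts of 4 Y-linked genes and of Xist showed that both WT P15 libraries came from females and both rd10 P15 libraries from males, and that at P18 and P21 replicate 1 was male and replicate 2 female. At P15 the effects of sex and genotype therefore cannot be told apart, while the libraries of opposite sex at P18 and at P21 came from different mice. The study speaks of several animals at each time point, but no source used here ties the libraries of WT P15 or of rd10 P15 to separate mice, and p-values then measure only the spread between these libraries.

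Among the 10 genes, Pros1 and Axl were higher in rd10 P18 than in WT P15, and no other change against WT P15 passed the test. Pros1 was 3.64-fold and Axl 2.89-fold higher at P18. A gene was called changed where edgeR's quasi-likelihood test gave a Benjamini-Hochberg adjusted p under 0.05 over 20457 genes and the absolute log2 fold change was over 1. By this rule the rd10 groups of P15, P18 and P21 had 0, 2 and 0 of the 10 genes called against WT P15, where 0.23%, 1.48% and 0.386% of all genes were called. At an unadjusted p under 0.05 there were 4, 6 and 7 of the 10, beside 12.3%, 17.4% and 11.8% of all genes. DESeq2 called 0, 2 and 3 of the 10, beside 2.13%, 4.74% and 2.76% of all genes, and the 3 at P21 were Axl, Pros1 and Itgb5.

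The fitted log2 fold change was positive for 7, 8 and 8 of the 10 genes at P15, P18 and P21. The median over the 10 genes was 0.36, 0.57 and 0.63, and that over all genes tested was -0.01, 0.01 and 0.00. The pair of rd10 libraries was wholly above the WT pair for 7, 6 and 6 genes and wholly below it for 2 genes at each age. Of all genes tested, 24.8%, 24.1% and 24.9% had rd10 libraries above and 24.9%, 22.9% and 24.2% below the WT libraries, so that such a split between 2 libraries and 2 libraries was common. The 3 comparisons share the WT P15 libraries. The 2 libraries of a group differed most in rd10 P18. The chi-square per gene between their counts was 95.0 there, 28.6 in WT P15, 23.0 in rd10 P15 and 36.7 in rd10 P21. The part of this spread in the calls was not tested.

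**Figure D1:**
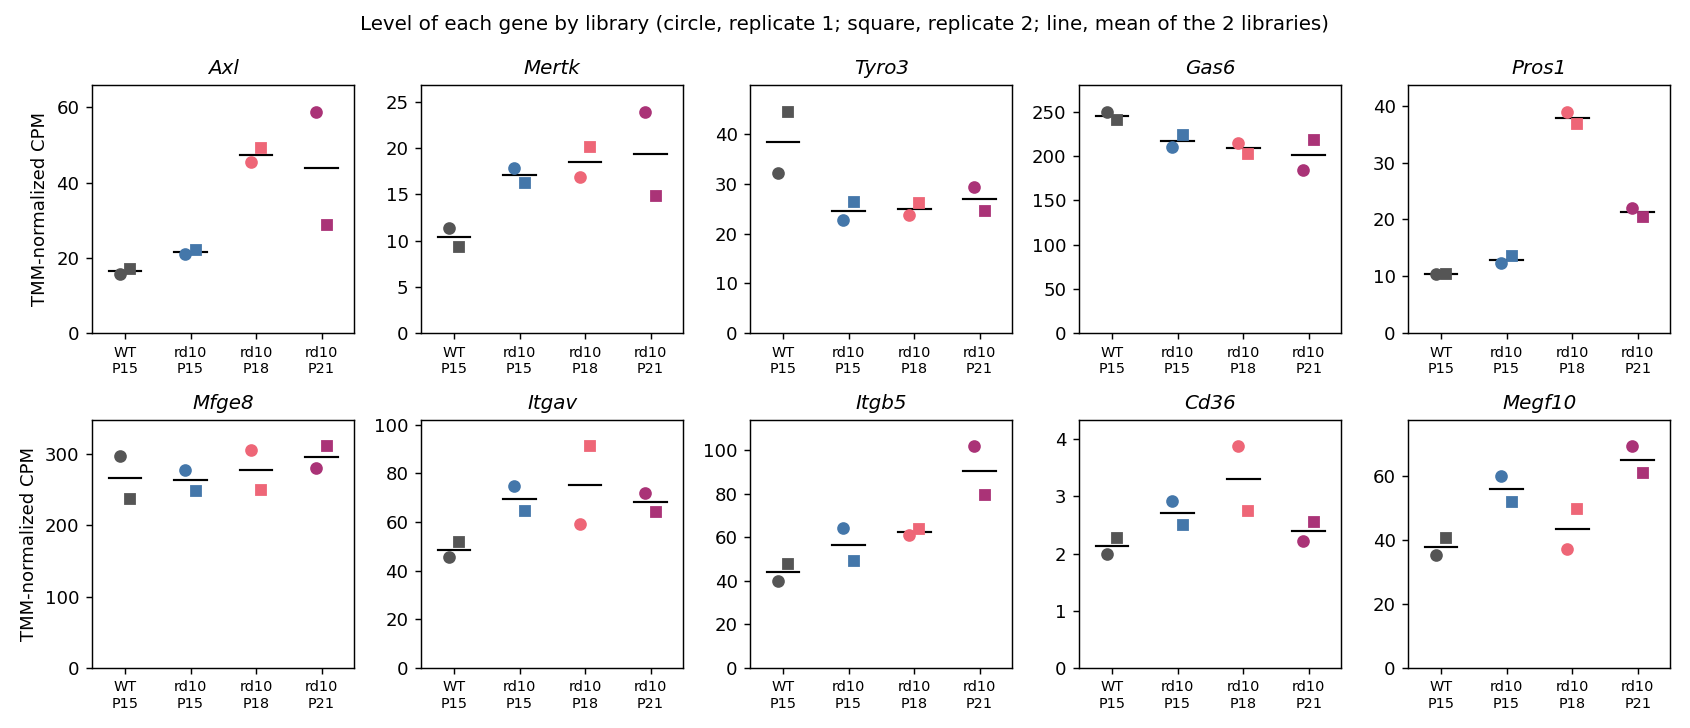
TMM-normalized CPM (y axis, from 0, one scale per gene) of the 10 genes in the 8 libraries, by group (x axis). Circles are replicate 1, squares replicate 2 and lines the mean of both. Pros1 was at 39.0 and 36.8 CPM in rd10 P18 and Axl at 45.6 and 49.3 CPM, above the WT P15 libraries, while the rd10 P21 libraries of Axl stood apart at 58.9 and 28.8 CPM.

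The first 250 bases upstream of the start sites of Axl and Pros1 are shown because these were the genes of the list that passed the test. The sequences are from RefSeq on GRCm38.p6, run 5′ to 3′ on the strand of the gene, and end at the base before the RefSeq start. That of Axl is chr7:25788734-25788983 on the minus strand, with a GC content of 60%, and that of Pros1 is chr16:62854057-62854306 on the plus strand, with a GC content of 64.4%. Capitals mark the matches to the motifs that were searched.
Axl: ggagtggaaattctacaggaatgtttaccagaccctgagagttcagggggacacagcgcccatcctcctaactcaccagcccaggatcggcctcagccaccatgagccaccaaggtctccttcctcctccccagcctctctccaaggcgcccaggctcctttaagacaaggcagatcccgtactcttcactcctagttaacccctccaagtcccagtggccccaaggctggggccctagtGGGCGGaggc
Pros1: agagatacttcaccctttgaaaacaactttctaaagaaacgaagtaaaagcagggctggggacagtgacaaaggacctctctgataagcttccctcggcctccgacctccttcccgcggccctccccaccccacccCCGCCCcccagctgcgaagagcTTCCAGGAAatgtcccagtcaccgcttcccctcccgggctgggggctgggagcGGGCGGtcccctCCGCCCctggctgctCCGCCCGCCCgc

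The motifs were searched on both strands in 32851 mouse promoter windows of 250 bases. They were the STAT motif TTCNNNGAA, found in 7.02% of all windows, the AP-1 motif TGANTCA (6.75%), the GC box GGGCGG (32.7%), the TATA box TATAAA (12.4%), the interferon response motif of GAAA repeated after 2 bases (2.98%), and the direct repeats of AGGTCA read by PPAR, with 1 base between them (0.0335%), and by LXR, with 4 bases between them (0.0152%). The Pros1 window held 1 STAT match, which began 92 bases before the start, and 5 GC boxes, the last pair of them overlapping. In the Axl window a single GC box began 10 bases before the start. Windows of 9 of the 10 genes were in the table, all but Megf10, and 8 of these 9 held a GC box, the exception being Itgav. STAT letters were found in the Pros1 window alone among the 9, and the other motifs in none. Such matches are letters in a window and were not tested as binding sites.

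Axl (ENSMUSG00000002602, chr7:25757273-25788705, minus strand, GRCm38) encodes the TAM receptor that macrophages raise under inflammation. Its libraries were at 15.8 and 17.1 CPM in WT P15, 21 and 21.96 CPM in rd10 P15, 45.6 and 49.3 CPM in rd10 P18, and 58.9 and 28.8 CPM in rd10 P21. Every rd10 library lay above both WT libraries, and the P21 pair differed 2.04-fold, more than any other pair of libraries of the 10 genes within a group. The fitted log2 fold change against WT P15 was 0.39 (SE 0.29, adjusted p = 0.656 by edgeR) at P15, 1.53 (SE 0.30, adjusted p = 0.0452) at P18 and 1.42 (SE 0.30, adjusted p = 0.0991) at P21. The change at P21 was called by DESeq2 (adjusted p = 0.000685), and the sign at P15 turned with a term for sex, to -0.070.

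The call of Axl at P18 was close to the threshold. It was lost with either WT P15 library left out (adjusted p = 0.272 without replicate 1 and 0.183 without replicate 2), with either rd10 P15 library left out (0.0805 and 0.0822) and without rd10 P18 replicate 1 (0.112). With a term for sex the adjusted p was 0.0797 and with the replicate number as a block 0.0633. At P21 the log2 fold change was 0.81 without replicate 1 and 1.85 without replicate 2, and in the latter fit Axl was called (adjusted p = 0.0125). Within the female libraries Axl stood at 15.8 and 17.1 CPM in WT P15, 49.3 CPM in rd10 P18 and 28.8 CPM in rd10 P21. Within the male libraries it stood at 21 and 21.96 CPM in rd10 P15, 45.6 CPM in rd10 P18 and 58.9 CPM in rd10 P21.

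Mertk (ENSMUSG00000014361, chr2:128698956-128802894, plus strand) encodes the TAM receptor of outer segment uptake and of resting macrophages. Its libraries were at 11.4 and 9.36 CPM in WT P15, 17.9 and 16.3 CPM in rd10 P15, 16.9 and 20.1 CPM in rd10 P18, and 24.0 and 14.9 CPM in rd10 P21. All 6 rd10 libraries were above the 2 WT libraries. None of the 3 changes against WT P15 was called, with log2 fold changes of 0.72 (SE 0.26, adjusted p = 0.314 by edgeR), 0.83 (SE 0.26, adjusted p = 0.156) and 0.90 (SE 0.26, adjusted p = 0.207).

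Tyro3 (ENSMUSG00000027298, chr2:119797733-119818104, plus strand), the TAM receptor best known from neurons, had the opposite sign. WT P15 libraries were at 32.2 and 44.6 CPM, rd10 P15 at 22.8 and 26.4 CPM, rd10 P18 at 23.9 and 26.2 CPM and rd10 P21 at 29.3 and 24.5 CPM. The 6 rd10 libraries lay below both WT libraries, which themselves differed 1.39-fold. The log2 fold changes of -0.64, -0.62 and -0.51 (SE 0.21, 0.20 and 0.20) were not called, with adjusted p of 0.253, 0.178 and 0.382 by edgeR.

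The ratio of Axl to Mertk per kilobase of exon, which does not depend on library scaling, took the values 1.19 and 1.57 for WT P15, 1.01 and 1.16 for rd10 P15, 2.32 and 2.11 for rd10 P18 and 2.12 and 1.67 for rd10 P21. The rd10 P15 libraries had ratios below those of WT P15, and the P18 and P21 libraries above them. The mean log2 ratio differed from WT P15 by -0.33, 0.70 and 0.46. Exact two-sided permutation tests gave p = 0.333 for each, the smallest p that 2 libraries against 2 allow.

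Pros1 (ENSMUSG00000022912, chr16:62854307-62929346, plus strand) encodes protein S, a ligand of Mertk and Tyro3 that also acts as an anticoagulant in blood. Its libraries were at 10.4 and 10.4 CPM in WT P15, 12.3 and 13.5 CPM in rd10 P15, 39.0 and 36.8 CPM in rd10 P18 and 22.04 and 20.5 CPM in rd10 P21. The libraries of each group lay close together and no 2 groups overlapped, with P18 the highest and P21 between P15 and P18. Against WT P15 the log2 fold change was 0.31 (SE 0.17, adjusted p = 0.509 by edgeR) at P15, 1.87 (SE 0.17, adjusted p = 0.00381) at P18 and 1.03 (SE 0.17, adjusted p = 0.0520) at P21. DESeq2 called the change at P21 (adjusted p = 0.000352). The call at P18 held with each of the 8 libraries left out in turn, with the term for sex and with the replicate block.

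Gas6 (ENSMUSG00000031451, chr8:13465374-13494490, minus strand), the ligand that binds all 3 TAM receptors, was far more abundant and changed little. WT P15 libraries were at 250 and 241 CPM, rd10 P15 at 211 and 224 CPM, rd10 P18 at 215 and 203 CPM, and rd10 P21 at 184 and 218 CPM. All 6 rd10 libraries were below both WT libraries. With log2 fold changes of -0.18, -0.23 and -0.29 (SE 0.13 each), Gas6 was not called, at adjusted p of 0.658, 0.417 and 0.451 by edgeR. Its exons share 34 bases with those of Tmem255b on the opposite strand, a gene with 411 counts in the 8 libraries together.

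Per kilobase of exon, the ratio of Gas6 to Pros1 took the values 38.7 and 37.1 for WT P15, 27.5 and 26.6 for rd10 P15, 8.85 and 8.84 for rd10 P18, and 13.4 and 17.1 for rd10 P21. Gas6 stayed the more abundant ligand in all 8 libraries. The mean log2 ratio was lower than in WT P15 by values of -0.49, -2.10 and -1.32, the groups did not overlap, and exact two-sided permutation tests gave p = 0.333, the smallest possible.

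**Figure D2:**
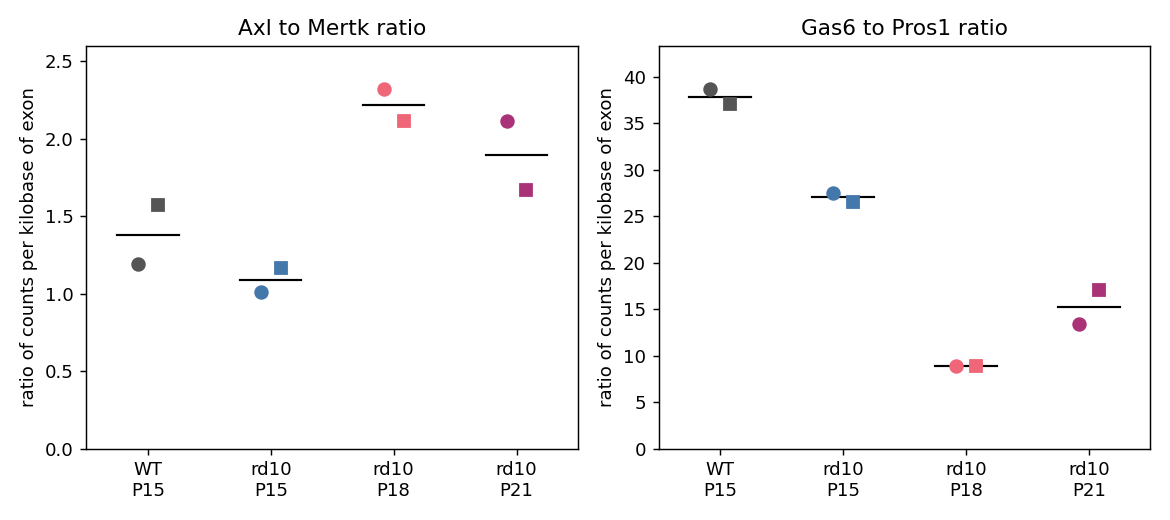
Ratios within each library of counts per kilobase of exon (y axes, from 0), by group (x axes), for Axl to Mertk and for Gas6 to Pros1. Circles are replicate 1, squares replicate 2 and lines the mean of both. The ratio of Gas6 to Pros1 was 38.7 and 37.1 in WT P15 and 8.85 and 8.84 in rd10 P18.

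Mfge8 (ENSMUSG00000030605, chr7:79133768-79149060, minus strand) encodes the secreted bridge between phosphatidylserine and αv integrins. It was at 298 and 237 CPM in WT P15, 278 and 249 CPM in rd10 P15, 306 and 249 CPM in rd10 P18, and 281 and 311 CPM in rd10 P21. The libraries of every rd10 group overlapped those of WT P15. The log2 fold changes were -0.02, 0.06 and 0.15 (SE 0.17 each, adjusted p = 0.986, 0.911 and 0.824 by edgeR), and the sign was not stable. Scaling by library size only turned the P15 value to 0.027, and leaving out 1 library moved the 3 values from -0.18 to 0.16, from -0.10 to 0.24 and from -0.0064 to 0.34.

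Itgav (ENSMUSG00000027087, chr2:83724397-83806916, plus strand), the αv subunit, was at 45.5 and 51.9 CPM in WT P15, 75.0 and 64.4 CPM in rd10 P15, 59.3 and 91.2 CPM in rd10 P18, and 72.1 and 64.2 CPM in rd10 P21. All rd10 libraries exceeded both WT libraries. The log2 fold changes of 0.52, 0.63 and 0.49 (SE 0.21 each) were not called, with adjusted p of 0.366, 0.178 and 0.415 by edgeR.

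Itgb5 (ENSMUSG00000022817, chr16:33829665-33949338, plus strand), the β5 subunit that pairs with αv, was highest at P21. The levels were 39.9 and 47.9 CPM in WT P15, 64.4 and 49.0 CPM in rd10 P15, 61.2 and 63.9 CPM in rd10 P18, and 102 and 79.6 CPM in rd10 P21. Both P21 libraries lay above the other 6. Against WT P15 the log2 fold changes at the 3 ages were 0.37, 0.51 and 1.05 with an SE of 0.19 each, and edgeR gave adjusted p of 0.482, 0.218 and 0.0700. The P21 change was not called by edgeR but was called by DESeq2 (adjusted p = 0.000495), and by edgeR without rd10 P18 replicate 1 or 2 (adjusted p = 0.0307 and 0.0308).

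Cd36 (ENSMUSG00000002944, chr5:17781690-17888801, minus strand), a scavenger receptor for oxidized lipids that also takes part in fatty acid uptake, was the least abundant of the 10 genes. Its counts lay between 54 and 130 per library. The levels were 2.00 and 2.27 CPM in WT P15, 2.93 and 2.50 CPM in rd10 P15, 3.88 and 2.74 CPM in rd10 P18, and 2.23 and 2.55 CPM in rd10 P21. P15 and P18 libraries lay above both WT libraries and the P21 libraries overlapped them. The log2 fold changes were 0.35, 0.63 and 0.16 with an SE of 0.39 each, larger than that of the other 9 genes, and adjusted p was 0.795, 0.449 and 0.943 by edgeR.

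Megf10 (ENSMUSG00000024593, on the plus strand of chromosome 18) encodes an engulfment receptor of glia. It was at 35.2 and 40.5 CPM in WT P15, 59.99 and 52.0 CPM in rd10 P15, 37.3 and 49.6 CPM in rd10 P18, and 69.4 and 60.9 CPM in rd10 P21. The P15 and P21 libraries lay above both WT libraries, and 1 of the P18 libraries fell between them. The log2 fold changes were 0.56 (adjusted p = 0.254 by edgeR), 0.20 (adjusted p = 0.622) and 0.78 (adjusted p = 0.122), with an SE of 0.18 each, and leaving out 1 library moved the P18 value from -0.023 to 0.39.

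**Figure D3:**
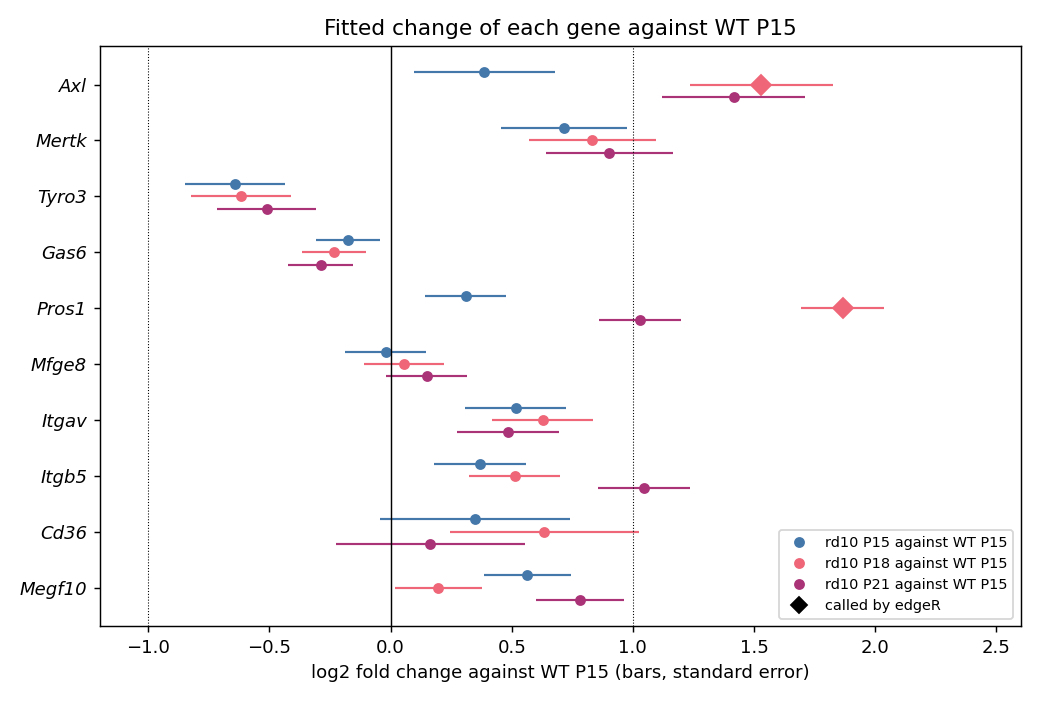
Fitted log2 fold change against WT P15 (x axis) of the 10 genes (y axis) at the 3 ages of rd10, with the standard error as bars. Diamonds mark the 2 calls by edgeR, Axl at 1.53 and Pros1 at 1.87, both at P18, and dotted lines mark the threshold of 1 in either direction.

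Within the rd10 retinas, Pros1 was the only one of the 10 genes called in any comparison, between P18 and P15. This was 1 of 10 genes, beside 0.591% of all genes, and 0 of the 10 were called between P21 and P15 (0.401% of all genes) or between P21 and P18 (0.0196% of all genes). At an unadjusted p under 0.05 there were 2, 3 and 3 of the 10, beside 12.9%, 12.8% and 10.8% of all genes, and DESeq2 called 2, 1 and 0 of them, beside 3%, 2.62% and 0.6%. Pros1 rose from P15 to P18 by a log2 fold change of 1.55 (SE 0.17, adjusted p = 0.0113 by edgeR). The call was lost without either rd10 P15 library (adjusted p = 0.112 without replicate 1 and 0.0867 without replicate 2). From P18 to P21 both Pros1 libraries were lower, with a log2 fold change of -0.84 (SE 0.17, adjusted p = 0.345 by edgeR), which was not called.

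Axl differed between P18 and P15 by a log2 fold change of 1.14 (SE 0.29, adjusted p = 0.167 by edgeR) and between P21 and P15 by 1.03 (SE 0.29, adjusted p = 0.199), both called only by DESeq2 (adjusted p = 0.0120 and 0.0353). By edgeR the first was called without rd10 P21 replicate 1 or 2 (adjusted p = 0.0320 and 0.0286) and the second without rd10 P21 replicate 2 (0.0256). From P18 to P21 the value for Axl was -0.11 (SE 0.29, adjusted p = 0.913), and the libraries overlapped. Itgb5 stood at a log2 fold change of 0.14 (SE 0.19, adjusted p = 0.801) between P18 and P15, where leaving out 1 library moved it from -0.042 to 0.36, and at 0.54 (SE 0.19, adjusted p = 0.440) between P21 and P18. Megf10 stood at -0.37 (SE 0.18, adjusted p = 0.440) and 0.58 (SE 0.18, adjusted p = 0.431) in the same comparisons. The P18 libraries of Megf10 lay below both the P15 and the P21 libraries.

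Per kilobase of exon, Gas6 was the most abundant of the 10 genes in all 4 groups, followed by Mfge8 and Itgb5, and Cd36 was the least abundant. In WT P15, Gas6 was at a mean of 96.4, Mfge8 at 56.9, Itgb5 at 12.3 and Cd36 at 0.594 CPM per kilobase, each apart from its neighbors in both libraries. Between these came Tyro3 (6.19), Megf10 (4.91), Itgav (4.53), Axl (3.26), Pros1 (2.55) and Mertk (2.40), where Tyro3 overlapped Megf10, Megf10 overlapped Itgav, and Pros1 overlapped Mertk. Axl was thus the seventh and Pros1 the eighth of the 10 genes in WT P15.

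The middle of this order differed in rd10. In rd10 P15 it ran Megf10 (7.26), Itgav (6.48), Axl (4.27), Tyro3 (3.97), Mertk (3.94) and Pros1 (3.16 CPM per kilobase), with Megf10 and Itgav overlapping, and likewise Axl and Tyro3, and Tyro3 and Mertk. At P18, Axl (9.43) and Pros1 (9.28) followed directly on Itgb5 (17.6) and overlapped each other, ahead of Itgav (7.003), Megf10 (5.63), Mertk (4.27) and Tyro3 (4.04), where Itgav overlapped Megf10, and Mertk overlapped Tyro3. At P21 the order was Axl (8.71), Megf10 (8.44), Itgav (6.34), Pros1 (5.20), Mertk (4.48) and Tyro3 (4.35). There Axl overlapped Megf10 and Itgav, and Mertk overlapped Pros1 and Tyro3. Tyro3 was thus the most abundant TAM receptor per kilobase in WT P15, apart from Axl and Mertk in both libraries, and Axl was so at P18 and P21, apart from Mertk and Tyro3 in both libraries at each age.

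Several cell types of the retina hold these genes, and in whole tissue a change in the number of cells and a change in RNA per cell cannot be told apart. The summed level of 12 microglial genes was 44.1 and 52.3 CPM in WT P15, 79.9 and 80.9 CPM in rd10 P15, 210 and 224 CPM in rd10 P18, and 299 and 146 CPM in rd10 P21. Against WT P15, 0, 4 and 3 of the 12 were called, all higher. Aif1 alone of the 12 was at 0 in any library, in WT P15 replicate 2 and rd10 P15 replicate 1. Itgam, 1 of the 12, shares 68.7% of its exon bases with Gm49368 on the same strand. Csf1r, another of them, shares 15.1% with Hmgxb3 on the opposite strand. The part of these overlaps in the sum was not tested. The library with the higher Axl in each group was also the one with the higher microglial sum. Set against that sum as plain CPM without length scaling, a description chosen after the values were seen, Axl stood at 35.8% and 32.7% for WT P15, 26.3% and 27.2% for rd10 P15, 21.7% and 21.98% for rd10 P18, and 19.7% and 19.7% for rd10 P21. The part of microglial number in the Axl result was not tested. Genes of monocytes and macrophages, 9 in the list, summed to between 22.1 and 28.6 CPM in the P15 libraries of both genotypes and to between 39.0 and 64.2 CPM at P18 and P21. Of the 9 genes 7 were tested, and at P18 all 7 had a positive fold change, with 1 called by edgeR (Lyz2) and 5 by DESeq2. At P21 edgeR called 0 and DESeq2 3 of them, and at P15 neither tool called any. Lyve1, at 14.7 to 23.9 CPM, and Lyz2, at 3.66 to 39.6 CPM, made up most of the sum. Ccr2, which marks monocytes that enter from blood, was at 0.11 and 0 CPM in WT P15, 0.13 and 0 CPM in rd10 P15, 2.51 and 2.68 CPM in rd10 P18, and 2.31 and 0.10 CPM in rd10 P21. The library with the lower Ccr2 was also the one with the lower Axl in rd10 P18 and rd10 P21. In WT P15 and rd10 P15, where Ccr2 had at most 3 and 4 counts, it was the one with the higher Axl. Cd163 was at 0 in 7 of the 8 libraries. The exception, at 8 counts, was rd10 P21 replicate 2, the P21 library with the lower Axl. The part of these cells in the Axl result was not tested.

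Reactive Muller glia genes, 8 in the list, were as a sum highest at P18, as was Pros1. Their sum was 90.8 and 112 CPM in WT P15, 62.3 and 66.0 CPM in rd10 P15, 1288 and 1084 CPM in rd10 P18, and 562 and 426 CPM in rd10 P21. Against WT P15 the test called 7 of the 8 higher at P18, 5 higher at P21 and 1 lower at P15. From P18 to P21 the fold change was negative for 7 of the 8 and positive for 1, Fgf2. Mean Fgf2 was 79.6 CPM at P18, from 409 and 4907 counts, and 137 CPM at P21. The general Muller glia list of 8 genes summed to between 3826 and 5389 CPM in all libraries. The P18 sums, at 3826 and 3971 CPM, were not above those of WT P15, at 4219 and 4670 CPM. Glul was the largest part of this sum, at a mean of 2617 CPM in WT P15 and 1830 CPM in rd10 P18. At P18, 5 of these 8 genes had a positive fold change against WT P15 and 3 a negative one, and edgeR called 1 higher. Blood vessel cells also hold Pros1 and Gas6, and the endothelial sum over 10 genes was 342 and 412 CPM in WT P15, 465 and 420 CPM in rd10 P15, 347 and 428 CPM in rd10 P18, and 612 and 521 CPM in rd10 P21. Kdr and Flt1 carried most of this sum. The median log2 fold change of the 10 genes against WT P15 was 1.09, 0.69 and 0.69 at the 3 ages, where edgeR called 1, 1 and 0 and DESeq2 4, 1 and 1 of them. The edgeR call was Cldn5, a tight junction gene, at 8.87 and 8.19 CPM in WT P15, 33.9 and 34.4 CPM in rd10 P15, 32.4 and 22.7 CPM in rd10 P18, and 19.7 and 19.8 CPM in rd10 P21. The pericyte sum over 5 genes was 122 and 120 CPM in WT P15, 230 and 247 CPM in rd10 P15, and between 140 and 152 CPM at P18 and P21. Of these 5 genes, 1 was called higher at P15. Sums of 4 astrocyte genes were 30.5 and 36.4 CPM for WT P15, 43.98 and 43.96 CPM for rd10 P15, 86.6 and 52.7 CPM for rd10 P18, and 52.4 and 75.97 CPM for rd10 P21, and 1 of the 4, Aldh1l1, was called higher at P18. The part of these cell types in the Pros1 result was not tested.

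**Figure D4:**
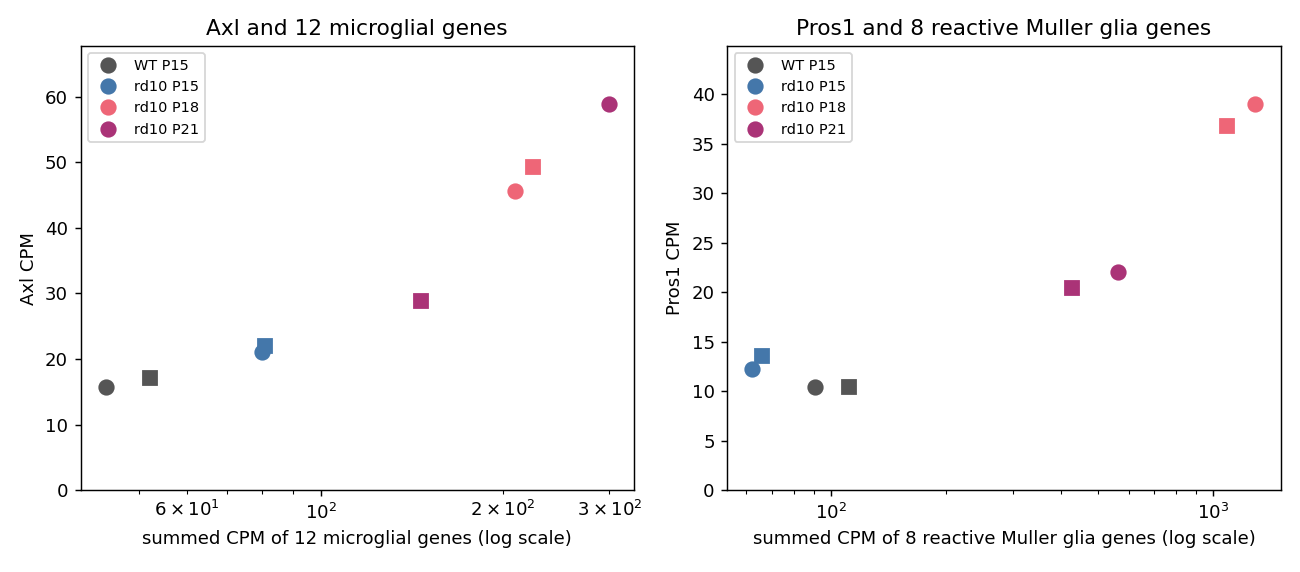
Left, Axl CPM (y axis) against the summed CPM of 12 microglial genes (x axis, log scale), and right, Pros1 CPM (y axis) against the summed CPM of 8 reactive Muller glia genes (x axis, log scale), one point for each of the 8 libraries, circles for replicate 1 and squares for replicate 2. The rd10 P18 libraries, at 39.0 and 36.8 CPM of Pros1, had reactive glia sums of 1288 and 1084 CPM, and the rd10 P21 library with 58.9 CPM of Axl had the highest microglial sum, 299 CPM.

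Retinal pigment epithelium, which is rich in Mertk and Itgb5, is not part of the neural retina but can come along in dissection. Its 10 marker genes summed to 46.1 and 182 CPM in WT P15, 285 and 326 CPM in rd10 P15, 46.1 and 31.2 CPM in rd10 P18, and 44.0 and 47.6 CPM in rd10 P21. The sum was thus high in both rd10 P15 libraries and in WT P15 replicate 2. In WT P15 replicates 1 and 2, Mertk was at 11.4 and 9.36 CPM and Itgb5 at 39.9 and 47.9 CPM. At P18 and P21, Mertk was at 14.9 to 24.0 CPM and Itgb5 at 61.2 to 102 CPM. The part of this tissue in the values of Mertk, Itgav and Itgb5 was not tested at any age.

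The genes whose pattern over the 8 libraries was most like that of Axl were Cryzl2, Trim56 and Msn, by the root-mean-square difference of mean-centered log2 CPM among 16206 genes with a mean of at least 1 CPM. These differences were 0.13, 0.17 and 0.18, against 0.69 for Axl's own deviation from its mean. Msn, the membrane linker moesin, was at 27.4 and 33.0 CPM in WT P15, 42.9 and 42.4 CPM in rd10 P15, 76.7 and 86.2 CPM in rd10 P18, and 78.9 and 46.01 CPM in rd10 P21. Its P21 libraries, which were among those by which Msn was picked, stood apart in the same order as those of Axl. For Pros1 the most similar genes were Ltbr, S100a16 and Sdf2l1, with differences of 0.18, 0.21 and 0.22 against its own 0.72. Ltbr, the lymphotoxin β receptor, was at 7.72 and 7.96 CPM in WT P15, 9.77 and 9.59 CPM in rd10 P15, 30.9 and 31.5 CPM in rd10 P18, and 16.8 and 11.2 CPM in rd10 P21. It was thus also highest at P18, in the same libraries by which it was picked.

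Beyond the 10 genes, 46 further genes of dead cell clearance were read, of which 42 passed the filter on low counts. Of these 42, 0, 1 and 0 were called against WT P15 at P15, P18 and P21, beside the shares of 0.23%, 1.48% and 0.386% of all genes, and 9, 10 and 7 had an unadjusted p under 0.05, beside 12.3%, 17.4% and 11.8% of all genes. DESeq2 called 2, 6 and 6, beside 2.13%, 4.74% and 2.76% of all genes. Their median log2 fold change was 0.05, -0.01 and 0.14, close to that of all genes.

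The called gene was Rhog, a small GTPase that acts upstream of Rac1 in engulfment, 1 of 13 tested genes of engulfment signaling and lipid export. Rhog was at 3.55 and 3.33 CPM in WT P15, 3.69 and 2.78 CPM in rd10 P15, 12.5 and 8.82 CPM in rd10 P18, and 8.59 and 7.69 CPM in rd10 P21. The P18 and P21 libraries lay above all P15 libraries of both genotypes. Its log2 fold change at P18 was 1.63 (SE 0.30, adjusted p = 0.0400 by edgeR), and the call was lost with the term for sex, with the replicate block, with only the 4 libraries compared, and with any 1 library left out other than rd10 P18 replicate 2.

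None of the 17 tested genes of other phosphatidylserine receptors and bridges was called. Cd300a, an inhibitory phosphatidylserine receptor of myeloid cells, and Stab1, a scavenger receptor, had the smallest p. Cd300a had 3 to 6 counts in each P15 library of both genotypes, 40 and 40 counts in rd10 P18 and 106 and 61 counts in rd10 P21, a log2 fold change at P21 of 3.88 (SE 0.70, adjusted p = 0.0704 by edgeR). Stab1 was at 2.70 and 2.43 CPM in WT P15, 9.32 and 5.53 CPM in rd10 P15, 8.29 and 17.4 CPM in rd10 P18, and 15.6 and 7.27 CPM in rd10 P21. All rd10 libraries of Stab1 lay above WT P15, and its log2 fold change at P18 was 2.32 (SE 0.50, adjusted p = 0.0622 by edgeR). DESeq2 called Cd300a and Stab1 at both P18 and P21, and edgeR called Stab1 at P18 without rd10 P18 replicate 1 or either rd10 P21 library, and both genes at P21 without either rd10 P18 library.

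Among 7 tested genes of phosphatidylserine exposure, none was called by edgeR, and DESeq2 called Atp8a2 at P18. Atp8a2, a flippase of photoreceptors that keeps the lipid inside, was at 375 and 304 CPM in WT P15, 305 and 337 CPM in rd10 P15, 105 and 233 CPM in rd10 P18, and 205 and 227 CPM in rd10 P21. Its P18 and P21 libraries lay below all P15 libraries, with a log2 fold change at P18 of -1.004 (SE 0.33, adjusted p = 0.181 by edgeR and 0.0215 by DESeq2). Ano6, a scramblase that exposes the lipid, was at 16.0 and 16.0 CPM in WT P15 and 24.8 and 20.2 CPM in rd10 P15, with a log2 fold change of 0.49 (SE 0.18, adjusted p = 0.316 by edgeR).

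Of 5 genes that restrain engulfment or cut its receptors from the cell surface, 0 were called. Cd47, the signal against being eaten, was at 32.4 and 30.6 CPM in WT P15, 132 and 88.7 CPM in rd10 P15, 158 and 53.2 CPM in rd10 P18, and 160 and 108 CPM in rd10 P21. All rd10 libraries were above both WT libraries, but the spread within the rd10 groups was wide, and the log2 fold change of 2.09 at P21 (SE 0.52, adjusted p = 0.189 by edgeR) was not called. DESeq2 called Cd47 at all 3 ages, and edgeR called it at P15 and P21 without either rd10 P18 library. Cd24a, a membrane-anchored glycoprotein that can also inhibit phagocytosis, was at 8.98 and 11.2 CPM in WT P15, 19.6 and 16.3 CPM in rd10 P15, 20.6 and 19.7 CPM in rd10 P18, and 11.5 and 12.03 CPM in rd10 P21. At P18 its log2 fold change of 1.00 (SE 0.20, adjusted p = 0.0546 by edgeR) was not called.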

How the data were processed

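The authors sequenced poly(A) RNA of single whole retinas on the Illumina NovaSeq platform and deposited raw counts per gene, whole numbers without normalization, for 57010 mouse Ensembl identifiers. The submitters' processing notes name HISAT2. A counting tool, genome build, annotation and strand setting were not given in the sources used here. GENCODE M21 (GRCm38) gave symbols (52081 identifiers), positions and exon lengths. Groups came from the GEO labels, with 2 libraries each.

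Genes were kept by filterByExpr (minimum count 10, minimum total count 15), scaled by TMM and tested with edgeR 4.0.16 under R 4.3.3 in a robust quasi-likelihood fit of all 8 libraries, without a replicate block, with 4 residual degrees of freedom. Benjamini-Hochberg adjustment ran over 20457 genes. Calls needed both an adjusted p under 0.05 and a log2 fold change over 1 in size. The standard errors (SE) given are the absolute log2 fold change divided by the square root of the quasi-likelihood F statistic. Log2 CPM used a prior count of 2. Fits were tested on simulated data. Male libraries had over 1000 Y-linked counts. The replicate numbers do not pair the samples.

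Alternatives were DESeq2 1.42.0, RLE factors, no scaling beyond library size, no low-count filter, no fold threshold, only the 4 libraries compared, a replicate block, a sex term, and each library left out. The members, lists and alternatives were chosen with earlier results of these data known. Besides the 10 members, the text names wider genes called against WT P15, the 2 of smallest p in a list without a call, and the 3 genes most similar to each called member. Other named genes (Tmem255b, Gm49368, Hmgxb3 and single cell type markers) were chosen after their values were seen. Figures were drawn with matplotlib 3.10.9.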

Additional observations from a re-analysis of the deposited data

Results flagged for a closer look

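Pros1 had different changes at the ages of rd10 under the same contrast with WT P15. The difference between the change at P18 and that at P15 is the contrast of rd10 P18 with rd10 P15, a log2 fold change of 1.55 by edgeR (adjusted p = 0.0113), with both P18 libraries above both P15 libraries. By edgeR with all 8 libraries, none of the other 9 genes of the list was called in a comparison between rd10 ages, while DESeq2 called Axl between P18 and P15 and between P21 and P15.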

How the results depend on the processing

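The signs and calls of the 10 genes, and the counts of calls, were the same under RLE factors, and the counts also without the fold threshold. The number of the 10 genes called at P18 against WT P15 (2) was 1 with the replicate block and 1 with a sex term, and 1 to 2 with a library left out. At P21 against WT P15 (0) it was 1 by library size only (Pros1), 2 without the filter (Pros1 and Itgb5), 3 by DESeq2, 1 with only the 4 libraries compared (Itgb5) and 0 to 2 with a library left out, where Pros1 (adjusted p = 0.0227) and Itgb5 were gained without an rd10 P18 library. Between rd10 P18 and P15 (1) it was 2 by DESeq2, 0 with only the 4 libraries (Pros1, adjusted p = 0.0550) and 0 to 2 with a library left out, and between P21 and P15 (0) it was 1 by DESeq2 and 0 to 1 with a library left out.

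Of the wider genes, at P15 against WT P15 (0) 2 were called by DESeq2, 1 with only the 4 libraries and 0 to 1 with a library left out. At P18 (1) there were 3 by library size only, 3 without the filter, 6 by DESeq2, 0 with only the 4 libraries, 0 with the replicate block, 0 with the sex term and 0 to 6 with a library left out, the 6 without rd10 P18 replicate 2. At P21 (0) there were 6 by DESeq2, 1 with only the 4 libraries and 0 to 3 with a library left out.

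Signs were followed for all 10 genes against WT P15. Between rd10 ages they were followed for Axl and Pros1, and for Itgb5 and Megf10 between P18 and P15 and between P21 and P18. Among the values followed, reversed signs were few and all in values that were not called. Mfge8 at P15 was 0.027 by library size only, and Axl at P15 was -0.070 with the sex term. By library size only, 9 of the 10 genes were positive between rd10 P18 and P15, against 8 with TMM. Between P21 and P15 these numbers were 8 and 7. With a library left out, Mfge8 ranged from -0.18 to 0.16 at P15, -0.10 to 0.24 at P18 and -0.0064 to 0.34 at P21, Itgb5 between P18 and P15 from -0.042 to 0.36, Megf10 at P18 from -0.023 to 0.39, and Axl between P21 and P18 from -0.72 to 0.31. Library size only moved the median of all genes to 0.13 at P18 and 0.11 at P21, while the percentage of all calls that were higher went from 77.6% to 86.0%, from 63.3% to 73.6% and, between P21 and P15, from 74.4% to 83.3%. The ratios kept their direction without length scaling and with each library left out.

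The groups share replicate numbers, but correlations of the deviations of same-numbered libraries were small (-0.059 to 0.108), so the numbers were not read as pairs. The highest value was that of rd10 P18 with rd10 P21. At these ages replicate 1 was male and replicate 2 female, so there the replicate block and the sex term are not separate checks. With the replicate block Axl at P18 had a log2 fold change of 1.53 and an adjusted p of 0.0633, and Pros1 stayed called at 1.87 (adjusted p = 0.0107). Counts were lowest for Cd300a, at 3 to 106 per library, and Cd36, at 54 to 130, and how far depth limits these values was not tested.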
